A study of Rattus norvegicus with 9 samples.

Results

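Ubiquitin-specific proteases, the genes whose symbol starts with Usp and a digit, were followed in the thalamus of young rats kept on chow or on powdered feed. The members were chosen by gene symbol in the platform annotation of the array, and where a gene had several probe sets it was represented by the one selected on the highest mean log2 value over all 9 arrays. The rule gave 43 of 14217 named genes, with 83 probe sets. A member, Usp6nl, encodes a GTPase-activating protein for Rab proteins and is in the family by name only. The comparison of chow with powder in this family was taken up with earlier results of these data known, so counts over the family are descriptions.

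The arrays came from male Wistar rats that entered at 3 weeks of age and are labelled as 5 weeks old. All rats first ate powder for 2 days and then, in groups balanced for weight, chow (the pelleted feed, which has to be chewed) or powder for 8 days. There were 4 chow and 5 powder arrays, each of total RNA from the thalamus, the relay between sense organs, brainstem and cortex. No transgene or drug was involved, and the study's interest was what chewing after weaning changes there. The labels mention 10 rats and do not tie each array to its own animal, so the p-values reflect only how far these samples scatter, which may be partly technical.

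Ubiquitin-specific proteases are the largest family of deubiquitinases in mammals. They are cysteine proteases that cut the bond between ubiquitin and a substrate protein, or between the ubiquitins of a chain, and so oppose ubiquitin ligases: removing the chain can spare a protein from the proteasome, change its route through endosomes or alter its activity. In neurons, members of the family are known for recycling ubiquitin at the proteasome, for sorting receptors and for setting how many glutamate receptors stay at synapses.

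The spread of the deposited values and the make-up of the samples bear on every result. Most probe sets barely varied: the 9 values of 30 Usp genes lay within 0.000218 to 0.0017 log2 units of each other, while those of the other 13 spanned 0.19 to 0.71, with none between. These 13 are called variable below and the 30 nearly constant, with 0.01 log2 units as the limit. Of all genes, 2414 of 14217 were variable. In addition, 1 array stood apart in cell type markers. The summed level of 7 thalamic relay neuron markers, such as Tcf7l2 and Prkcd, was 11144 on chow 1 and 14315 to 17003 on the other 8 arrays, on the linear scale. That of 4 striatal markers was 1358 on chow 1, 741 to 766 on the other chow arrays and 698 to 771 on powder. For 5 GABA neuron markers it was 5656 on chow 1, 3656 to 4342 on the other chow arrays and 3547 to 4371 on powder. None of the 7 relay markers and none of the 4 striatal or 5 GABA neuron markers was called in limma, where 1 relay marker (Tcf7l2) lay lower on all chow arrays and 1 GABA neuron marker (Gad2) higher. The 4 hypothalamic peptide genes had summed levels of 1854 to 4544 under chow and 872 to 4594 under powder. Summed levels did not overlap between the diets for 4 endothelial markers (2060 to 2217 under chow and 2224 to 2330 under powder; 2 of 4 called lower, Flt1 and Slco1a4), for 4 hippocampal and cortical markers (1144 to 1393 and 1410 to 1521; 1 of 4 called lower, Prox1, while the differences of Slc17a7, Wfs1 and Neurod6 were above 0 and not called) and for 2 habenular markers (378 to 521 and 300 to 348; 1 of 2 called higher, Tac1). Of 4 oligodendrocyte markers Mobp was called lower, with overlapping sums. Of 4 neuron markers, Syt1 was called higher (0.42, adjusted p = 0.0425) and Snap25 lower (-0.022, adjusted p = 0.0374), with sums of 10034 to 10183 under chow and 10006 to 10117 under powder. Of 5 astrocyte markers 1 was called higher, on a nearly constant probe set, and Aqp4 lay lower on all chow arrays (-0.14, adjusted p = 0.0567, not called), with sums of 8568 to 9266 and 9237 to 9868. These marker calls stand beside 40.2% of all variable genes called lower and 9.03% called higher. Of all variable genes, 37.9% had the diets fully separated with chow lower, and 8.29% with chow higher. Whether cell make-up shifted with diet was not tested, nor was the part of tissue make-up in the values below. In bulk tissue, fewer cells of a type and less RNA per cell cannot be told apart. Without background levels, no gene can be called absent.

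Among the 13 variable Usp genes, 5 were lower under chow and 0 higher: Usp40, Usp25, Usp48, Usp32 and Usp33, with log2 differences of -0.33 to -0.15. They act in different places, from the nucleus to the Golgi and receptor recycling. A gene was called where the adjusted p from limma (Benjamini-Hochberg over all 14217 genes) was under 0.05, and at an unadjusted p under 0.05 the counts were 8 lower and 1 higher. The share called lower, 38.5% of the 13, sat beside 40.2% of all variable genes called lower and 9.03% called higher. Differences were below 0 for 11 of the 13, with a median of -0.15, and for 1745 of the 2414 variable genes, with a median of -0.12. A share so near that background is not a result about the family. Without chow 1 the counts were 4 lower and 0 higher.

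**Figure D1:**
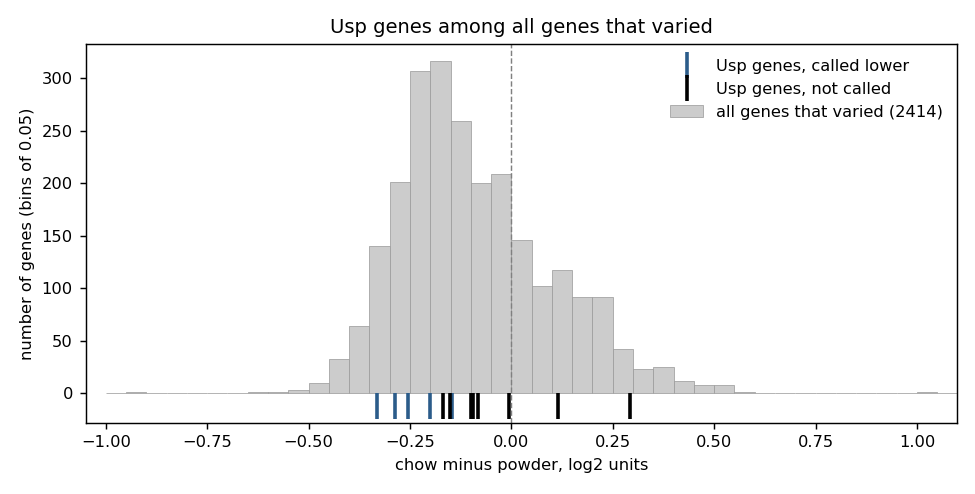
Horizontal axis: chow minus powder in log2 units; vertical axis: number of genes in bins of 0.05. Grey bars are all 2414 variable genes and ticks the 13 variable Usp genes, blue for the 5 called lower. The ticks run from -0.33 to 0.29, across the body of the grey distribution, whose median was -0.12.

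Promoters of genes that fell are shown as a description only, as 40.2% of all variable genes were called lower too. The sequences are the 250 bases before the RefSeq transcription start (assembly GRCr8, written along the gene's strand) for the 3 members with the largest fall, and capitals mark the motifs searched.

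Usp40, chr9:96126722-96126971, minus strand: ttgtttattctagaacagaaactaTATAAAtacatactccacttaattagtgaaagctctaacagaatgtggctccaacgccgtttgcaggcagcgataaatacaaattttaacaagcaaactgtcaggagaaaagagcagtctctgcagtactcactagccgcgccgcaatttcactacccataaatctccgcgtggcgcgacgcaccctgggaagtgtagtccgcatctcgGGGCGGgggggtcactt

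Usp25, chr11:29090403-29090652, plus strand: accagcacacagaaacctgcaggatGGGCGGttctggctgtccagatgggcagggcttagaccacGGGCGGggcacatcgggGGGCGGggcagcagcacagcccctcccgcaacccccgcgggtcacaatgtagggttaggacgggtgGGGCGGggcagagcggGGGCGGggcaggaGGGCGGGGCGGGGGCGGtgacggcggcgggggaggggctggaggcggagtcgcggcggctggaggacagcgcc

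Usp48, chr5:155083788-155084037, plus strand: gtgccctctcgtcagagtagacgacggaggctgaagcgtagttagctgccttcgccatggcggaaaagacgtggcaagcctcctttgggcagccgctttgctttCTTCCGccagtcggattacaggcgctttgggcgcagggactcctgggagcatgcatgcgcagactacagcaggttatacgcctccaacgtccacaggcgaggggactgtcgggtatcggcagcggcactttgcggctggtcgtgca

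Motifs were searched on both strands, with overlapping matches counted: the GC box GGGCGG bound by Sp1, the CCAAT box, the ETS factor core CGGAAG, the cAMP response element core TGACGT, the E box CACGTG and the TATA box TATAAA. The 3 sequences looked unlike each other. Usp25 held 8 GC boxes and a GC content of 74.8%, Usp40 held 1 GC box and 1 TATAAA at 47.2%, and Usp48 held 0 GC boxes and 1 ETS core at 61.2%. Of the 5 fallen genes, 4 held a GC box and 3 an ETS core, including 7 GC boxes in Usp32 and 2 in Usp33. Over the 34 Usp genes of 43 that matched the promoter table these shares were 70.6% and 38.2%, and over all 33469 promoters listed they were 30.5% and 13.9%. None of the 5 held a CCAAT box, a cAMP response element core or an E box, which were found in 34.0%, 6.95% and 5.59% of all promoters. TATAAA was found in 12.9% of all promoters and in 1 of the 5. The median GC content was 64.8% for the Usp genes and 51.2% for all. A match is only the presence of these letters.

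Usp40, a little-described member, had the largest fall of the variable genes in the family. Its log2 values were 8.48, 8.44, 8.40 and 8.57 on the chow arrays and 8.79, 8.79, 8.84, 8.71 and 8.87 on the powder arrays. All chow arrays were below all powder arrays, as was the case for 37.9% of all variable genes (8.29% had all chow arrays above). The means were 8.47 ± 0.072 and 8.80 ± 0.060 (SD, n = 4 and 5), a difference of -0.33 ± 0.043 (SE) or 0.795-fold (adjusted p = 0.00319), and -0.33 without chow 1 (adjusted p = 0.00938). Its 3 other probe sets were nearly constant, and 2 of them were called in the opposite direction with differences of 0.000225 and 0.00033.

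Usp25 encodes an enzyme that trims ubiquitin in endoplasmic reticulum quality control and in immune and Wnt signalling. It was at 8.22, 8.32, 8.32 and 8.34 under chow and at 8.76, 8.58, 8.61, 8.44 and 8.55 under powder. The groups did not overlap, and powder 4 came nearest to chow. The difference was -0.29 ± 0.061 (0.819-fold, adjusted p = 0.0133), or -0.26 without chow 1 (adjusted p = 0.0341). A second, nearly constant probe set was called the other way with 0.000321. Usp28, its closest relative, known for sparing Myc and for a part in the DNA damage response, was nearly constant, with a called difference of -0.000385.

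Usp48, a nuclear enzyme that acts on histone H2A, gave the tightest powder group of the 5. It was at 8.52, 8.48, 8.62 and 8.62 under chow, and at 8.79, 8.82, 8.83, 8.81 and 8.83 under powder. The SD was 0.068 for chow and 0.015 for powder, with no overlap. The difference was -0.26 ± 0.030 (0.837-fold, adjusted p = 0.00262), or -0.24 without chow 1 (adjusted p = 0.00829). Its other probe set, nearly constant, was also called lower (-0.000289).

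Usp32 is a membrane-bound enzyme of the Golgi and endosomes. Its values were 9.59, 9.67, 9.86 and 9.82 under chow and 9.90, 10.01, 9.96, 9.85 and 9.96 under powder. Chow 3 lay above powder 4, so the groups overlapped, and chow 1 and chow 2 were the lowest arrays. The difference was -0.20 ± 0.062 (0.871-fold, adjusted p = 0.0432). It was not called when any 1 of 6 arrays was left out (chow 1, chow 2 or powder 1, 2, 3 or 5; adjusted p from 0.0716 to 0.102), with -0.15 and adjusted p = 0.0829 without chow 1. Its other probe set, nearly constant, had a difference of the opposite sign (0.000174, adjusted p = 0.0674 over all probe sets, not called).

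Usp33, an enzyme of receptor recycling that also acts on the guidance receptor Robo1, fell least of the 5. It was at 10.71, 10.71, 10.78 and 10.74 under chow and 10.93, 10.92, 10.85, 10.88 and 10.82 under powder. No chow array reached the lowest powder array. The difference was -0.15 ± 0.027 (0.903-fold, adjusted p = 0.00829), or -0.14 without chow 1 (adjusted p = 0.0232). Its close relative Usp20, which acts on the same adrenergic receptor, was nearly constant, with a called difference of -0.000176.

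**Figure D2:**
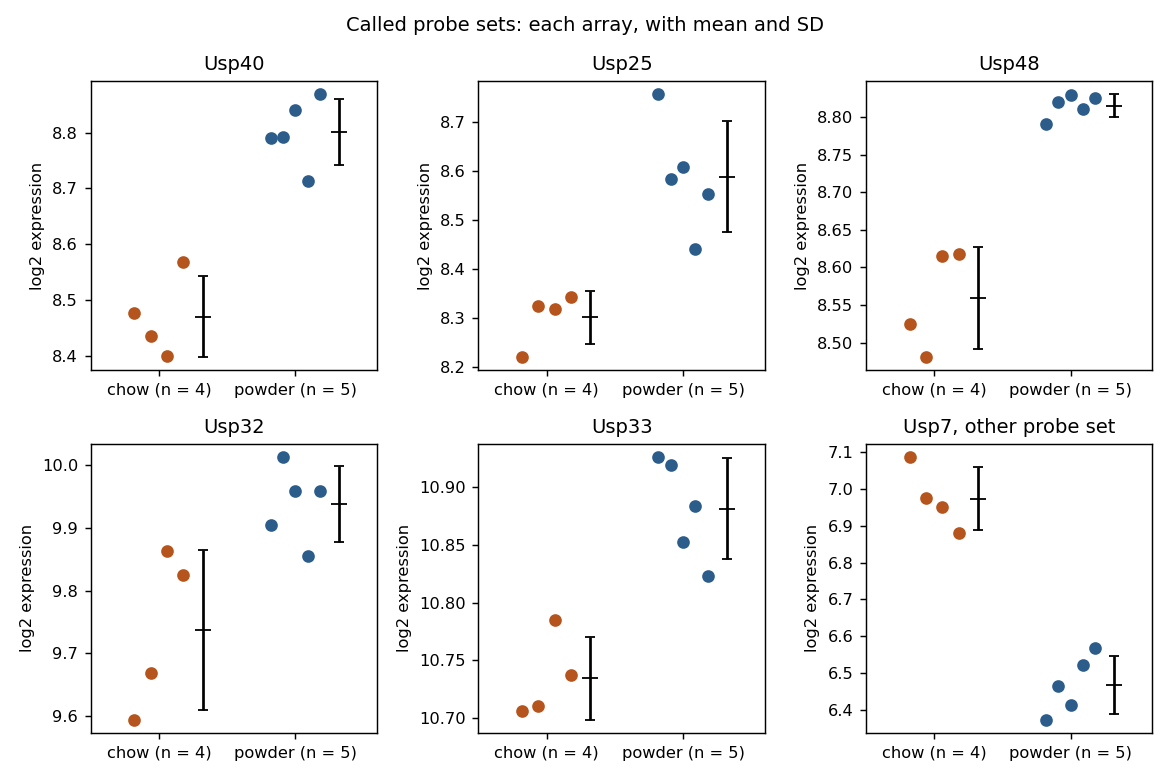
Each panel shows log2 expression (vertical axis, own range per panel, not from 0) on the 4 chow arrays and 5 powder arrays, with black marks for mean and SD. Chow lies below powder without overlap for Usp40, Usp25, Usp48 and Usp33, with overlap for Usp32, and above powder for the Usp7 probe set of mean level 6.69.

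The largest difference in the family was on a probe set that did not stand for its gene. Usp7 encodes the nuclear enzyme known for removing ubiquitin from p53 and from its ligase Mdm2. Its dimmest probe set had a mean of 6.69, below which lay 18.9% of all probe sets, and no background level was available. It was at 7.09, 6.98, 6.95 and 6.88 under chow and at 6.37, 6.47, 6.41, 6.52 and 6.57 under powder. All chow arrays lay above all powder arrays, and the difference was 0.51 ± 0.053 (1.42-fold, adjusted p = 0.00225 over all probe sets), or 0.47 without chow 1. Of all 4849 variable probe sets, 682 had all chow arrays above all powder arrays and 782 (16.1%) were called higher. The other Usp7 probe sets did not match the dimmest one. The brightest, at 9.03, was called lower by -0.00113 (adjusted p = 0.00632 over genes); that at 8.04 differed by 0.017 ± 0.0064 (adjusted p = 0.0792, not called), and that at 8.73 by -6.66e-05 (not called).

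Probe sets of 1 gene often differed in sign, as they did over all genes, and 67 of the 83 Usp probe sets were nearly constant. Of the 23 Usp genes with several probe sets, 14 (60.9%) had differences of both signs, beside 61.0% of 4525 such genes in all. Usp7, Usp13, Usp25 and Usp40 (17.4%) were called in both directions, beside 13.1% of all. Over the 83 probe sets, 23 were called lower and 8 higher, beside 16.7% and 17.9% of all 31042 probe sets. Of the 40 probe sets that did not stand for their gene, 4 were called lower and 8 higher, among them both dimmer ones of Usp8. Only 1 of the 8, that of Usp7, was variable. The share of such probe sets called over all genes was not computed. Of the 5 Usp49 probe sets, 3 cite the same source sequence and are not independent.

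**Figure D3:**
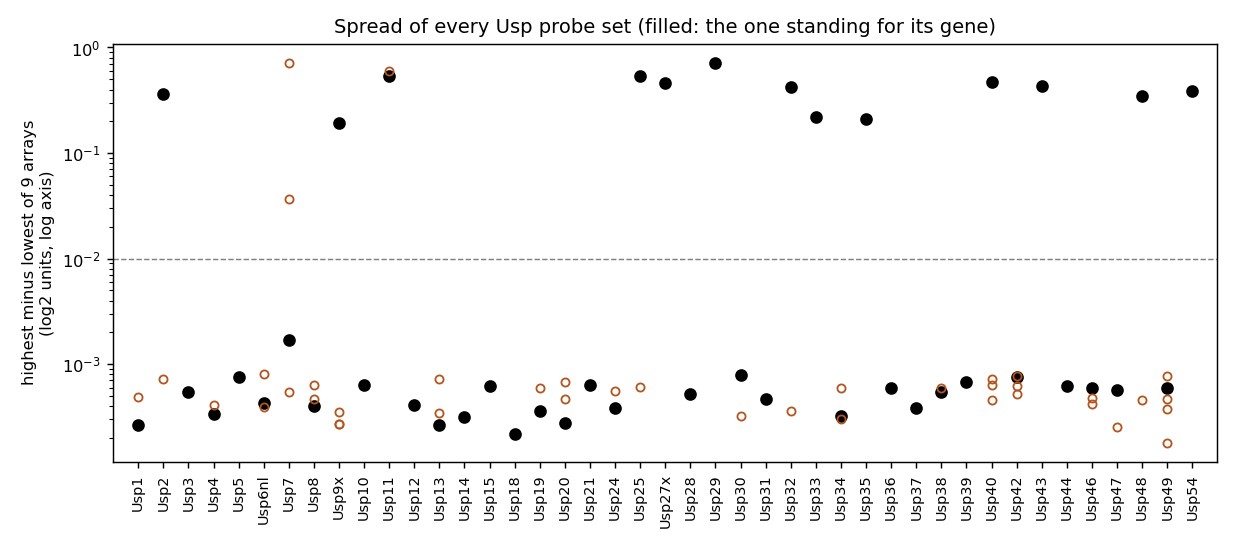
For each Usp gene (horizontal axis), the highest minus the lowest of the 9 arrays in log2 units on a log axis. Filled points stand for the gene, open points are its other probe sets, and the dashed line marks 0.01: 16 of 83 probe sets lie above it and 67 below, the highest of those at 0.0017.

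Of the variable genes, 2 had differences above 0 and were not called. Usp29, an imprinted gene expressed from the paternal copy beside Peg3, was at 9.13, 8.90, 8.71 and 8.90 under chow and at 8.49, 8.42, 8.70, 8.81 and 8.66 under powder. Only powder 4 exceeded any chow array, namely chow 3. The difference was 0.29 ± 0.108 (95% interval 0.039 to 0.54, adjusted p = 0.0731), and 0.22 without chow 1 (adjusted p = 0.157). It was called after quantile normalization (0.32, adjusted p = 0.0308), with array medians subtracted (0.30, adjusted p = 0.0241), among variable genes alone (adjusted p = 0.0406) and without chow 3 (0.36, adjusted p = 0.0473).

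Usp11, an X-linked enzyme linked to DNA repair through Brca2, was at 10.16, 9.62, 9.77 and 9.98 under chow and at 9.67, 9.68, 9.72, 10.04 and 9.73 under powder. Chow 1 and powder 4 were the highest arrays and the groups overlapped. The difference was 0.12 ± 0.126 (95% interval -0.18 to 0.41, adjusted p = 0.496), and 0.023 without chow 1. A second variable Usp11 probe set, of mean 7.25, was at 0.21 ± 0.093 (adjusted p = 0.11), 0.14 without chow 1, and called with array medians subtracted (0.22, adjusted p = 0.0452). Its closest relatives Usp4 and Usp15, which act in TGF-beta signalling, were nearly constant and not called.

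The other 6 variable genes had differences below 0 that were not called. Usp54, long thought to lack protease activity, was at -0.17 ± 0.066 (95% interval -0.33 to -0.014, adjusted p = 0.0854). It was called without powder 4 (-0.21, adjusted p = 0.0349) and with array medians subtracted (-0.16, adjusted p = 0.0403). Usp43 was at -0.15 ± 0.078 (adjusted p = 0.166). It changed to -0.085 without chow 1. Usp2, known for rhythmic expression and for acting on cyclin D1 and the clock protein Per1, was at -0.10 ± 0.061 (adjusted p = 0.229), and -0.045 without chow 1. For Usp35, linked to mitochondria, 3 of 4 chow arrays (8.49, 8.62 and 8.59) were below the narrow powder group of 8.69 to 8.70 and chow 3 was at 8.696. Its difference was -0.094 ± 0.036 (adjusted p = 0.0781), -0.059 without chow 1, and it was called without chow 3 (-0.13, adjusted p = 0.0196) and with array medians subtracted (-0.088, adjusted p = 0.0443).

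Usp9x, a large X-linked enzyme with roles in synapses and neuronal migration, was at 9.97, 10.00, 9.95 and 9.93 under chow and 10.01, 10.00, 10.07, 10.12 and 10.02 under powder. Only chow 2 exceeded a powder array, and the gap there was small. The difference was -0.081 ± 0.028 (95% interval -0.15 to -0.017, adjusted p = 0.0578), called among variable genes alone (adjusted p = 0.0477) and with medians subtracted (-0.075, adjusted p = 0.0274). Its next brightest probe set, nearly constant, was called lower by -0.000197. Usp27x, a relative of the histone H2B protease Usp22, was at -0.0067 ± 0.097 (95% interval -0.23 to 0.22, adjusted p = 0.962). Usp22 itself was not analysed here.

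**Figure D4:**
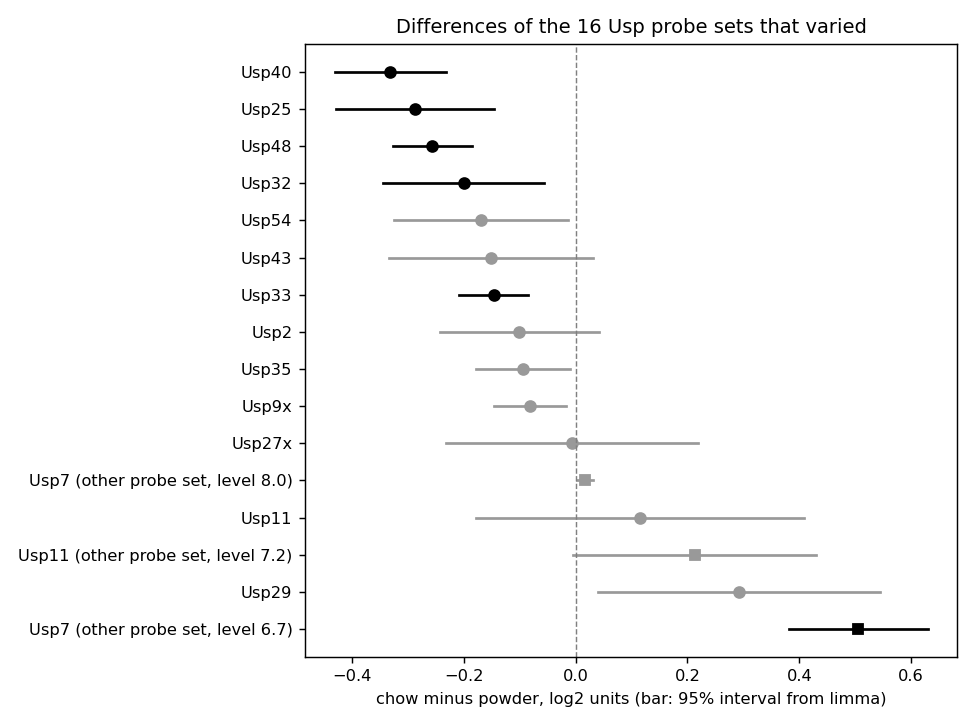
Horizontal axis: chow minus powder in log2 units, with 95% intervals from limma over all probe sets; rows are the 16 variable Usp probe sets, squares those that do not stand for their gene. Black marks a call: 5 lie below 0 and the Usp7 probe set at 0.51 lies above.

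The arrays differed in how far they moved the 13 variable genes. Averaged over these genes, each value minus the gene's mean over 9 arrays was -0.090 to -0.020 on the chow arrays and 0.037 to 0.059 on the powder arrays. Chow 1 was the lowest of all 9 arrays for 7 of the 13 and the highest for 3, which were Usp11, Usp27x and Usp29. No other chow array was the highest for any of the 13.

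**Figure D5:**
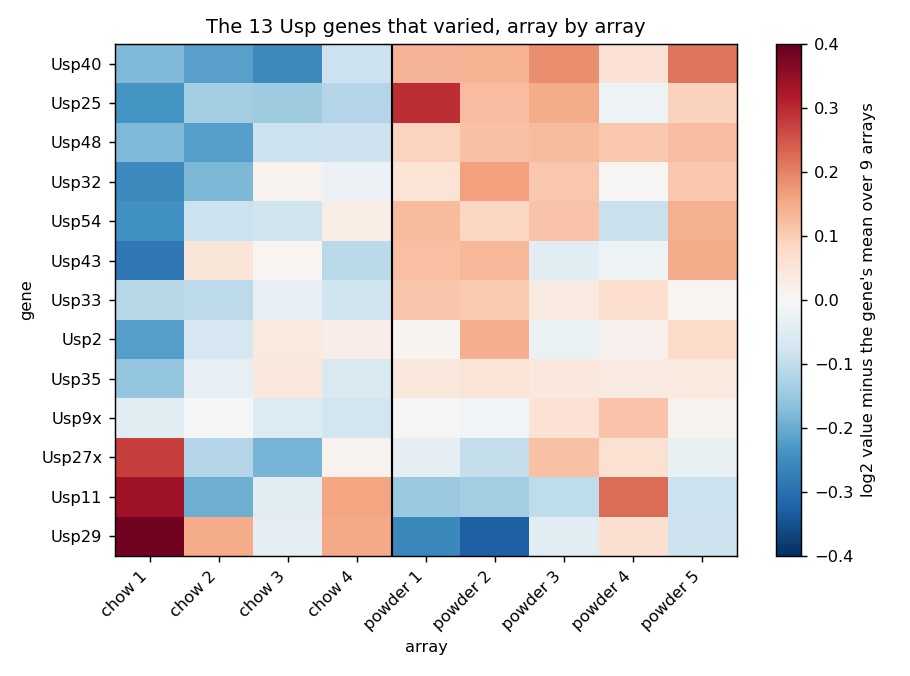
Rows are the 13 variable Usp genes in order of difference, columns the 9 arrays, and colour the log2 value minus the gene's mean over the arrays. The chow columns are mainly blue and the powder columns mainly red in the upper rows, and chow 1 is deepest blue for 7 genes and deepest red for Usp11, Usp27x and Usp29.

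The 30 nearly constant genes include many of the best known members. Of them 14 were called lower and 0 higher (18 and 1 at an unadjusted p under 0.05), beside 14.4% lower and 15.2% higher of all 11803 nearly constant genes. Over the whole family, 19 of 43 were lower and 0 higher (26 and 2 unadjusted), beside 18.8% and 14.2% of all genes. Without chow 1 the counts were 16 and 0, beside 15.5% and 9.64% of all genes. The largest difference among the 30 was the -0.00113 of Usp7. Such differences carry almost no size, and their direction turned with the scaling: after quantile normalization 5 Usp genes were lower and 30 higher, beside 1000 lower and 8329 higher of all 14217 genes. With array medians subtracted the counts were 8 and 31, beside 1133 and 12112 of all genes. The 5 variable genes that fell were still called lower under both scalings.

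By role, the calls were spread over several groups, to be read beside the 18.8% of all genes called lower. Of 3 genes of the proteasome and of free ubiquitin chains, Usp13 was called lower (-0.000184), and Usp14, the proteasome-bound enzyme whose loss impairs mouse synapses, was at -1.98e-05 and not called. Among 10 genes of receptor traffic and synapse, 4 were called lower, the variable Usp33 and the nearly constant Usp10, Usp6nl and Usp20. Usp8, which sorts receptors at endosomes, was at 0.000127 and Usp46, known from mice for effects on GABA-related behaviour and glutamate receptor turnover, at 0.000117, neither called. Of 8 histone and transcription genes, Usp7, Usp21 and Usp36 were called lower. Of 10 DNA repair and cell cycle genes, 5 were called lower, among them the variable Usp48 and, with the smallest p of the nearly constant, Usp28 (adjusted p = 0.00215). Usp34, a large enzyme that acts on axin in Wnt signalling, was at -0.000243 (adjusted p = 0.00261), Usp19, anchored in the endoplasmic reticulum, at -0.000237 (adjusted p = 0.00524), and Usp30, which opposes mitophagy on the mitochondrial outer membrane, at -0.000453 (adjusted p = 0.0322). The Usp30 call was lost when any 1 of 7 arrays was left out.

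Other genes of the ubiquitin pathway are given for comparison, without a test of the lists. Of 31 measured genes listed as deubiquitinases or related proteases outside the family, 9 (29.0%) were lower and 4 (12.9%) higher, beside 18.8% and 14.2% of all genes. The median difference was -0.0001 (the median over all genes was -7.19e-06). Of the 6 variable ones, 4 were lower and 1 higher, beside 40.2% and 9.03% of all variable genes. The other calls were on nearly constant genes. Zup1, which cuts long lysine-63-linked chains, fell by 0.31 on the log2 scale with an adjusted p of 0.00588, as did Mysm1, a histone H2A protease (-0.31, adjusted p = 0.00372). Otud4 was at -0.15 (adjusted p = 0.00269). Vcpip1, which works with the ATPase p97 in Golgi reassembly, rose by 0.21 (adjusted p = 0.0101).

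The counts of the next lists stand beside 18.8% of all genes called lower and 14.2% called higher. Of 17 proteins that bind Usp enzymes, 2 (11.8%) were lower and 3 (17.6%) higher, with a median of 8.73e-06. The variable ones were Atxn7, a subunit that holds the Usp22 module in the SAGA complex (-0.32 ± 0.036, adjusted p = 0.00244), and Wdr20, an activator of Usp12 and Usp46 (-0.23 ± 0.053, adjusted p = 0.0175). They were called lower, as were 40.2% of all variable genes. The probe sets standing for Usp12 and Usp46 were nearly constant and not called, and another Usp46 probe set was called lower by -0.000265 (adjusted p = 0.0438). Of 28 ubiquitin-conjugating enzymes, 5 (17.9%) were lower and 2 (7.14%) higher, with Ube2q2 at -0.097 ± 0.0051 (adjusted p = 0.000749) and the rest of the calls nearly constant. Of 7 ubiquitin and activating-enzyme genes, Sae1, a subunit of the SUMO-activating enzyme, was lower (-0.012, adjusted p = 0.0155) and Uba7, which activates the ubiquitin-like Isg15, was higher on a nearly constant probe set (adjusted p = 0.0457).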

How the data were processed

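Per the labels, TRIzol and RNeasy columns gave the RNA, of which 100 ng was labelled with biotin. The authors deposited log2 expression values, 1 for each probe set on each array. How they corrected background, summarised, normalized or centred them is not given in the sources. The log2 scale was read from the range of values, 5.37 to 14.05. Array medians were 7.3907 to 7.3964 on chow and 7.3978 to 7.4019 on powder, every chow median below every powder one; no normalization was added. The 57 control probe sets were left out, leaving 31042, of which 20826 had 1 gene symbol. All 43 Usp symbols stood in the RefSeq table of assembly GRCr8.

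Chow minus powder was fitted in R 4.3.3 with limma 3.58.1 (lmFit, eBayes, no covariates) over all genes and over all probe sets, and called at a Benjamini-Hochberg adjusted p under 0.05. Values are log2 differences ± SE, or means ± SD. The fitting step was tested on simulated data.

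The members and lists were chosen with earlier results of these data known. Named were every variable Usp gene and probe set, the 4 nearly constant genes of smallest p, Usp7, Usp8, Usp9x, Usp14, Usp30 and Usp46 in any case, and up to 4 called members of each pathway list. Others, such as relatives, were named after their values were seen. The labels' numbers were not used to pair arrays: the deviations of equal-numbered arrays from their group means correlated at -0.32, 0.16, -0.38 and -0.0068. Protein sequences were not used here. The number of arrays limits the precision.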

Additional observations from a re-analysis of the deposited data

Results flagged for a closer look

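In 4 of 48 groups of arrays checked over the named Usp genes and probe sets, 1 array lay far from the others of its group; chance gives about 1 in 20 groups. Usp11 was at 10.04 on powder 4 and at 9.67 to 9.73 on the other powder arrays. Usp54 was at 9.42 on powder 4, the array without which it was called, and at 9.60 to 9.66 on the others. On nearly constant probe sets, Usp30 was at 9.1403 on powder 1 against 9.1405 to 9.1406, and Usp46 at 8.4119 on chow 1 against 8.4115 on the other chow arrays.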

How the results depend on the processing

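Usp40, Usp25, Usp48 and Usp33 kept direction under each alternative run, except Usp40 by the median over its probe sets. There the Usp40 call turned round: it was called higher under chow (0.000294, adjusted p = 0.019), the 1 variable gene called higher in that run. Otherwise the 4 lost their calls only with the replicate block (-0.31, -0.30, -0.25 and -0.16 in that order, adjusted p from 0.0586 to 0.118). With the replicate number as a block, 0 Usp genes, 0 variable Usp genes and 0 Usp probe sets were called in either direction. Of all genes 11 were called, all lower. By deviations from the group means, 0 of 4 chow arrays lay closest to the powder array of the same number. With so few arrays this cannot exclude that the numbers pair them. Usp genes lower and higher were 5 and 30 after quantile normalization and 8 and 31 with array medians subtracted. They were 10 and 2 by the median over probe sets, beside 14.2% and 16.9% of all genes. Among variable genes alone, where fewer genes were tested, they were 6 and 1, beside 43.5% and 10.1% of those tested. At adjusted p under 0.1 1 was higher. For the 13 variable genes the counts were 5 and 1, 8 and 1, 4 and 1, and 6 and 1 in that order, and 8 and 1 at adjusted p under 0.1. Usp probe sets lower and higher were 5 and 55 after quantile normalization (1854 and 15610 of all 31042), 8 and 71 with medians subtracted (2141 and 27206 of all), and 7 and 2 among variable probe sets alone; at adjusted p under 0.1 15 were higher. Leaving out each array gave 15 to 19 lower and 0 to 1 higher Usp genes, 4 to 6 lower and 0 to 1 higher variable ones, and 18 to 23 lower and 4 to 8 higher probe sets. Higher probe sets were 4 without powder 1, and 5 without powder 2 or powder 3.

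Differences of nearly constant genes turned above 0 after quantile normalization and with medians subtracted: Usp28 0.013 and 0.0062, Usp34 0.027 and 0.0063, Usp19 0.020 and 0.0063, Usp7 0.023 and 0.0054, Usp14 0.027 and 0.0066, Usp30 0.029 and 0.0061. Those scalings moved them by more than their spread. By the median over probe sets Usp34 was at 0.000115 and Usp7 at 0.00826. Usp27x was at 0.00085 after quantile normalization and from -0.0999 to 0.054 with 1 array left out, Usp14 from -6.68e-05 to 3.8e-05. The count over variable genes was added after seeing the data. Of the alternatives planned, all were run. No background signal was available, so depth limits could not be set.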
